A study of Homo sapiens with 6 samples.

Results

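Collagen genes were taken as every gene whose name in a deposited exon annotation of U-87 MG cells has the form COL, number, A, number. There were 34 of them among 13721 gene names. They filled 3105 of 382567 exon rows and made up 83 listed isoforms. U-87 MG is an established human glioma cell line. RNA came from cells grown for 72 h with 10 uM EPZ015666, which inhibits PRMT5, a methyltransferase that acts on arginines (3 libraries), and from cells grown for 72 h with DMSO, the vehicle, at 10 ul in each 10 ml of medium (3 libraries). All 6 libraries were poly(A)-selected, and nothing in the labels says whether the replicates were separate cultures. The annotation serves both groups together, in hg19 coordinates, and has 0 value columns per library, so it gives no depth, level or replicate spread. Expression tables that the labels name were not analysed here, and EPZ015666 was not compared with DMSO. What follows describes gene structures, and the intervals are 95% Wilson intervals that cover counting error only.

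Collagens are the main structural proteins of the extracellular matrix. A chain carries glycine at 1 residue in every 3 over its helical stretch, and 3 chains wind around each other into a triple helix, at whose core only glycine fits. One such repeat takes 9 bases of coding sequence, and the helix of the fibrillar collagens is known to be encoded by many short exons. Fibrillar collagens make the banded fibres of skin, bone and vessels, basement membrane collagens make sheet-like networks under epithelia and around brain vessels, and the other groups link, anchor or decorate these structures. The groups used here hold 44 names, of which 10 had no row: COL2A1 and COL24A1 of the fibrillar group, COL6A5 and COL6A6 of the beaded filaments, COL9A1, COL19A1 and COL20A1 of the fibril-associated group, COL23A1 and COL25A1 of the transmembrane group, and COL26A1.

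The repeat can be read in the exons themselves. The exons below show 4 of the lengths that recur in the fibrillar genes, in COL1A1, which encodes the alpha 1 chain of type I collagen. Letters are those of the exon of the same length and order in GENCODE v29 transcripts (GRCh38), and positions are those of the deposited rows in hg19. Capitals mark the first 2 bases of each glycine codon (GGN, with N any base) in frame. The COL1A1 exons lie on the minus strand at chr17:48275522-48275566 (45 bases, reference exon 7), chr17:48275310-48275363 (54 bases, exon 8), chr17:48272928-48273026 (99 bases, exon 17) and chr17:48272082-48272189 (108 bases, exon 21).
COL1A1 exon of 45 bases: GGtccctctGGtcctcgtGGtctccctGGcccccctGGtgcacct
COL1A1 exon of 54 bases: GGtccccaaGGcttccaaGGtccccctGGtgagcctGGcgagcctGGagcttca
COL1A1 exon of 99 bases: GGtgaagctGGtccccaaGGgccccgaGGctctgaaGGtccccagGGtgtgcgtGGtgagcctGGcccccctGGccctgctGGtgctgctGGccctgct
COL1A1 exon of 108 bases: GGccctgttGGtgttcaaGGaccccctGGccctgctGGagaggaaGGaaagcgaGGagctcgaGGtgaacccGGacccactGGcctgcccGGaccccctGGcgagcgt
Each of these exons opened on the first base of a glycine codon and had a further glycine codon at every step of 9 bases, 5 of 5 steps in the 45-base exon, 6 of 6 in the 54-base exon, 11 of 11 in the 99-base exon and 12 of 12 in the 108-base exon.

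Exons of 54 bases from other chains show the same layout with other residues between the glycines. COL1A2 encodes the alpha 2 chain of type I collagen (chr7:94034005-94034058, plus strand), COL5A2 a chain of type V, which is built into type I fibrils (chr2:189962003-189962056, minus strand), COL11A1 a chain of type XI, found in cartilage fibrils (chr1:103474019-103474072, minus strand), and COL27A1 the chain of type XXVII (chr9:116940571-116940624, plus strand).
COL1A2 exon of 54 bases: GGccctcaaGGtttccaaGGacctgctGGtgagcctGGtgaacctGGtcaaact
COL5A2 exon of 54 bases: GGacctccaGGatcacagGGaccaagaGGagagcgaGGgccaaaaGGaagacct
COL11A1 exon of 54 bases: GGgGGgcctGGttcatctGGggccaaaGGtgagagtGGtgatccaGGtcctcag
COL27A1 exon of 54 bases: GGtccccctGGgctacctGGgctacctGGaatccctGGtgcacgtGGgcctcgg
All 4 had glycine codons at 6 of 6 steps.

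These lengths recurred among the internal exons of the 9 listed fibrillar genes. Of 470 distinct internal exons, 384 (81.7%, 78.0% to 84.9%) had a length that was a multiple of 9, against 408 of 784 (52.0%, 48.5% to 55.5%) in the other 25 collagen genes and 15997 of 123699 (12.9%, 12.7% to 13.1%) in all other genes. Over all genes together the share was 13.4%. Lengths that were a multiple of 3, which keep the reading frame, made up 91.3% of fibrillar internal exons, 82.4% in the other collagen genes and 38.7% in all other genes, with 39.1% over all genes. The median internal exon had 54 bases in the fibrillar genes, 69.5 bases in the other collagen genes and 123 bases in all other genes. Exons of one gene family descend from each other and are not independent, so these shares are given without a test.

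Exons of 54 bases alone made up 218 of the 470 fibrillar internal exons (46.4%, 41.9% to 50.9%), against 83 of 784 (10.6%) in the other collagen genes and 496 of 123699 (0.401%) in all other genes, with 0.638% over all genes. Exons of 45 bases came to 49 (10.4%, 7.98% to 13.5%) in the fibrillar genes, 51 (6.51%) in the other collagen genes and 326 (0.264%) in all other genes, with 0.341% over all genes. There were 62 fibrillar exons of 108 bases (13.2%), which is 54 doubled, with 0.857% over all genes. Another 20 had 99 bases (4.26%), which is 54 and 45 together, with 0.873% over all genes. The 4 of 162 bases (0.851%, 0.331% to 2.17%) came near the share over all genes, 0.509%. Together the lengths 54, 45, 99, 108 and 162 covered 353 fibrillar internal exons (75.1%), 157 in the other collagen genes (20.0%) and 3511 in all other genes (2.84%), with 3.22% over all genes. Outside the fibrillar group the lengths were more spread, and 36 bases (74 exons, 9.44%), 45 bases and 63 bases (51 exons each, 6.51%) stood beside 54 bases. Over all genes, 36 bases made up 0.237% and 63 bases 0.556%.

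**Figure D1:**
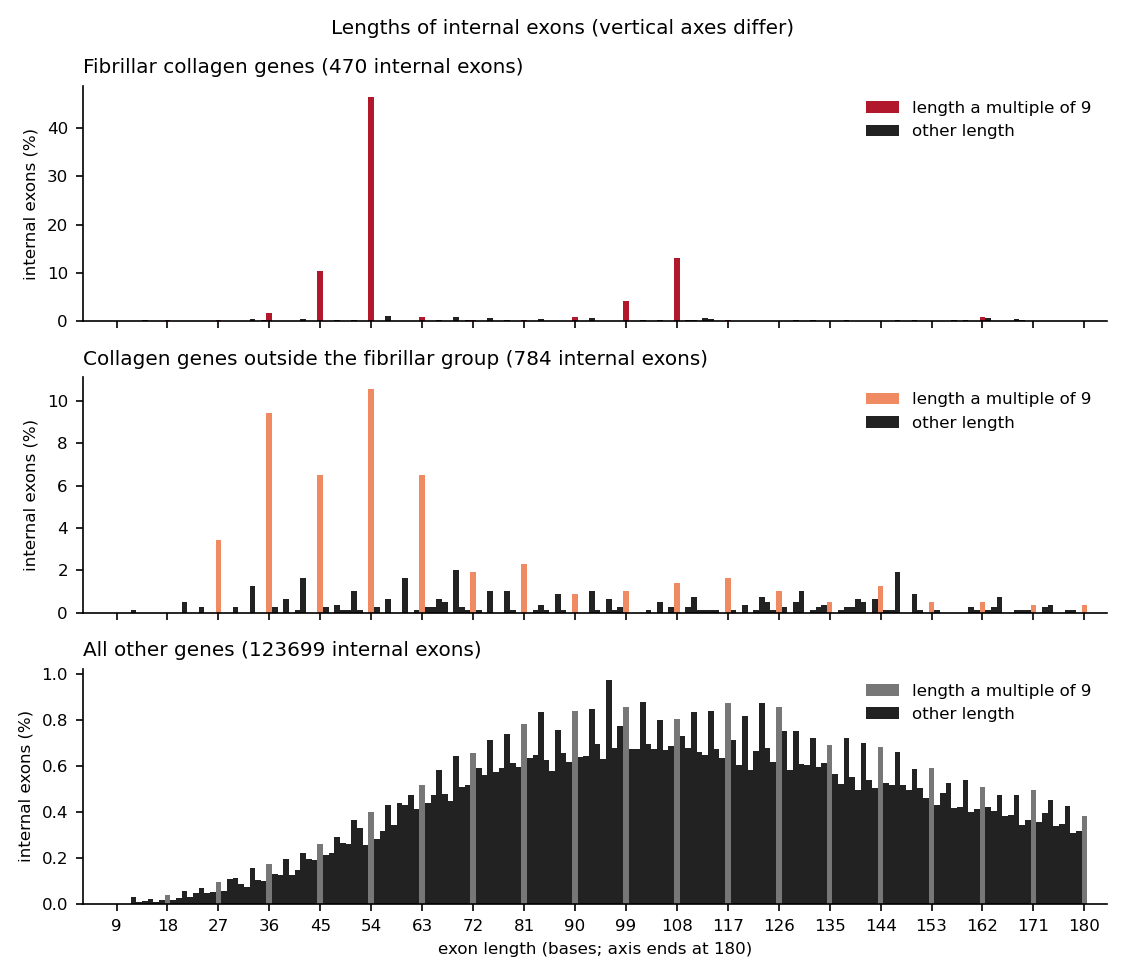
Share of distinct internal exons (percent, vertical axes differ) at each length up to 180 bases in the 9 fibrillar collagen genes (470 exons), the other 25 collagen genes (784) and all other genes (123699), with lengths that are multiples of 9 in colour or grey and other lengths in black. The fibrillar bars stand at 45, 54, 99 and 108 bases, with 46.4% of exons at 54 bases, while the other genes spread over all lengths.

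The 9 fibrillar genes differed among themselves. In the isoform with the most introns, COL1A1 had 42 internal exons in a row with lengths that were multiples of 9 (exons 6 to 47, 3060 bases), and COL1A2 had 43 (exons 5 to 47, 3042 bases). COL5A2 had a run of 42 exons, COL5A1 47, COL11A1 48, COL5A3 40 and COL27A1 38. COL5A1 and COL11A1, which encode related chains of types V and XI, had runs of the same total, 2979 bases. COL3A1, the chain of type III collagen, had a longest run of 15 exons and COL11A2, a chain of type XI, one of 6. In both of these genes exons that take in an intron interrupt the series, as described below. The COL5A3 run (exons 15 to 54) also stopped at such an exon, of 348 bases.

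Exon lengths also split the fibrillar genes into sets. COL1A1, COL1A2, COL3A1 and COL5A2 each had 5 exons of 99 bases and 1 of 162 bases. COL5A1, COL5A3, COL11A1 and COL27A1 had 0 of either length. COL11A2 also had 0, but 15 of its 26 internal exons take in introns, so its listed lengths do not place it in a set. COL5A1, COL5A3 and COL11A1 each listed 7 exons of 45 bases, and COL27A1 listed 9. COL27A1 had the most exons of 54 bases, 33 of its 58 internal exons, followed by COL11A1 with 31 of 64, COL5A3 with 30 of 64 and COL5A1 with 29 of 64. COL1A1 had 21 of 48, COL1A2 24 of 48, COL3A1 20 of 46 and COL5A2 24 of 52, while COL11A2 had 6 of 26.

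Reading frame was checked in the 443 fibrillar coding exons whose own length and both flanking introns matched the reference. Of the 377 with a length that was a multiple of 9, 376 began on the first base of a codon (99.7%) and 368 had glycine codons at every step (97.6%). In all collagen genes 637 of 759 such exons had glycine codons at every step (83.9%). All other genes had 2 of 12123 (0.0165%), both in CCBE1 with 36 bases, although 59.6% of their exons began on the first base of a codon. All 49 fibrillar exons of 45 bases and 216 of 218 of 54 bases held the full series. COL5A1 (48 of 48) and COL5A3 (47 of 47) had it in every exon counted.

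The 9 fibrillar exons without the full series lay in few places. COL1A1 exon 6 (72 bases, 2 of 8 steps), COL3A1 exon 5 (81 bases, 3 of 9 steps) and COL1A2 exon 6 (54 bases, 2 of 6 steps) lie early in their genes. The exons of 234 bases in COL11A1, 207 bases in COL11A2 and 243 bases in COL3A1 were each the exon before the last and had at most 4 glycine codons at their steps. COL5A2 exon 2 (225 bases) was the only one of the 377 to begin on the second base of a codon. COL27A1 had 2, exon 6 (54 bases, 4 of 6 steps) and exon 56 (27 bases, 2 of 3 steps). The COL1A2 exon (chr7:94030879-94030932, plus strand) is shown because it has the usual length of 54 bases but glycine codons at another spacing.
COL1A2 reference exon 6: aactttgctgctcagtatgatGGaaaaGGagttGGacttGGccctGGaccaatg
Its 5 glycine codons began at bases 22, 28, 34, 40 and 46, counted from 1 at the 5′ end of the exon, and so lay 6 bases apart.

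Outside the fibrillar group, 303 of 382 exons with a length that was a multiple of 9 began on the first base of a codon (79.3%) and 79 on the second, and 41 of those 79 had glycine codons at every step counted from the cut codon. The fibril-associated genes began 111 of 118 on the first base, among them all 45 of COL16A1, and the transmembrane COL13A1 began 23 of 23 there. Of 76 basement membrane exons with a length that was a multiple of 9, 40 began on the first base of a codon and 36 on the second, and COL17A1, a transmembrane collagen of the hemidesmosome, began 21 of 21 on the second. Counted from the cut codon, glycine codons stood at every step in 25 of those 36 basement membrane exons and in 15 of the 21 of COL17A1. The exons shown are COL4A6, a basement membrane chain (chrX:107435703-107435810, minus strand), COL17A1 (chr10:105810606-105810659, minus strand), and for contrast COL6A1, a chain of the beaded filaments (chr21:47410893-47410955, plus strand). The lone capital G at either end of the first pair is part of a glycine codon split by an intron. Counted from the cut codon, the COL4A6 exon had glycine codons at 11 of 12 steps, lacking the last, and the COL17A1 exon at 6 of 6.
COL4A6 exon of 108 bases: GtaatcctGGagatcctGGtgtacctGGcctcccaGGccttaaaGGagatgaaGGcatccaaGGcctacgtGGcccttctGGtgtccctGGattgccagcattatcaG
COL17A1 exon of 54 bases: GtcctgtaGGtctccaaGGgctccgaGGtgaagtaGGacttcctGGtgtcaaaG
COL6A1 exon of 63 bases: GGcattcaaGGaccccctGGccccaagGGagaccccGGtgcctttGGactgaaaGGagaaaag
The 63-base length was the most frequent in COL6A1, COL6A2 and COL6A3, the 3 listed beaded filament genes, with 22 of their 100 internal exons. COL7A1, whose chain forms the anchoring fibrils of skin, had 26 exons of 36 bases among 115 internal exons and the full series in 58 of 76 exons counted.

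**Figure D2:**
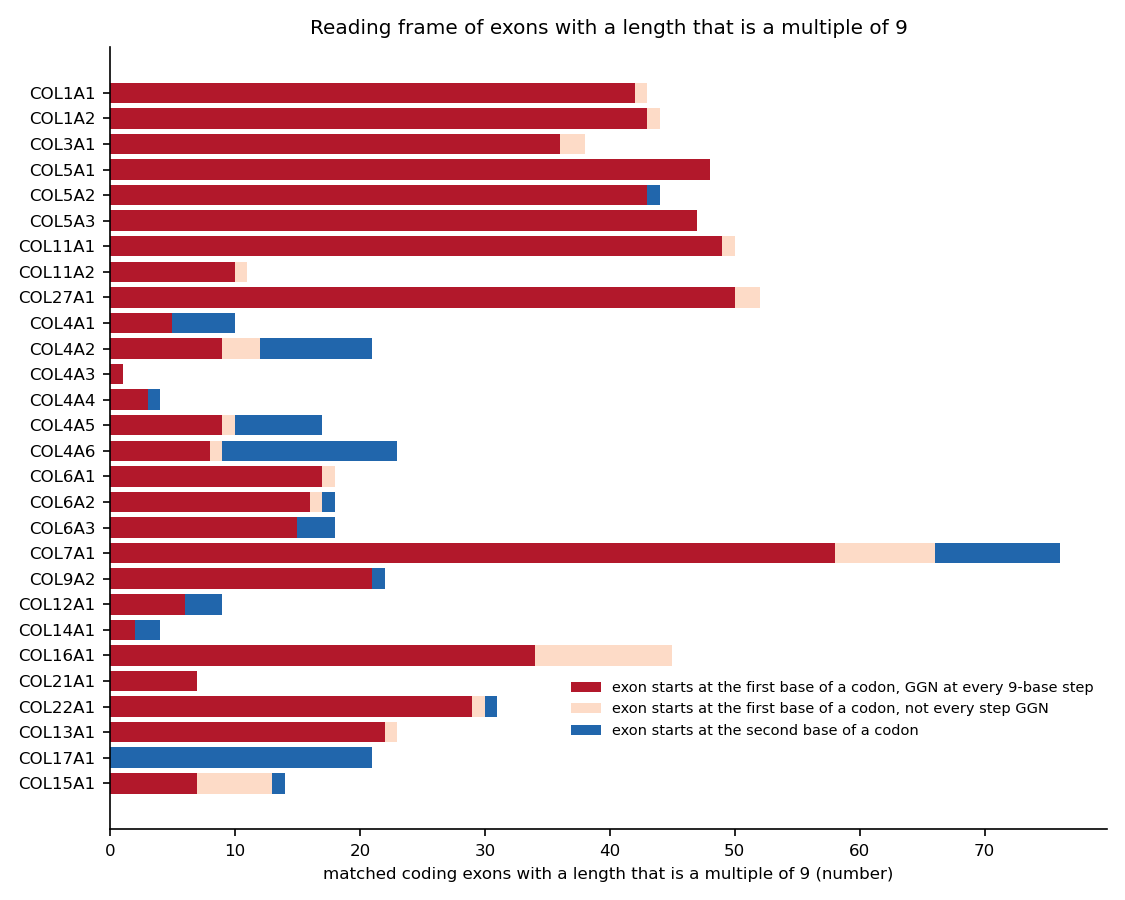
Number of matched coding exons with a length that is a multiple of 9 in each of 28 collagen genes, split by the codon base on which the exon starts and by whether GGN stood at every step of 9 bases. The fibrillar genes at the top are almost wholly of the first kind, while COL17A1 has 21 exons that all start on the second base of a codon.

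Completeness was measured against the GENCODE v29 coding transcript with the most introns, by matching intron lengths in order. A gene was called complete where at least 90% of reference introns were matched and partial otherwise. There were 17 complete collagen genes of 34 (50.0%, 34.1% to 65.9%), with 33.7% over all genes. Collagen genes have many introns, and among genes with 25 or more reference introns the share was 17 of 31 (54.8%) for collagen genes and 58.2% over all genes. Of the 1599 reference introns of the collagen genes, 1235 were matched (77.2%, 75.1% to 79.2%), against 77.5% of those of all matched genes. Of the other 364, 125 lay between matched introns inside 1 exon, 55 lay on the 5′ side of the first matched intron, 61 on the 3′ side of the last, and 123 had no match in length or belonged to a gene listed without introns.

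The fibrillar genes had 474 of 526 reference introns matched (90.1%, 87.3% to 92.4%), and 8 of 9 genes were complete. COL5A2 had all 53 introns, the only collagen gene with every reference intron. COL5A3 had 65 of 66, COL27A1 59 of 60, COL1A1 49 of 50, COL1A2 49 of 51, COL11A1 63 of 66, COL5A1 62 of 65 and COL3A1 47 of 50. COL11A2 had 27 of 65 and was the partial one, with 35 of its reference introns inside joined exons.

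The basement membrane genes had 175 of 293 reference introns matched (59.7%), and 1 of 6 genes was complete. COL4A6 was the complete one, with 42 of 45. COL4A2 had 42 of 47 and COL4A5 46 of 52, both just under 90%. COL4A1 had 28 of 51, COL4A4 12 of 47 and COL4A3 5 of 51. COL4A3 and COL4A4 encode chains that with that of COL4A5 form the network of the kidney glomerulus. The listed COL4A3 began with an exon of 8031 bases before reference intron 15 and ended in an exon of 35174 bases after reference intron 23.

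The remaining groups held both kinds. All 3 beaded filament genes were complete (100 of 104 introns), as was COL7A1 with 115 of 117 introns, the most introns of any collagen gene. COL16A1, which had 68 of 70, COL12A1 with 63 of 66 and COL9A2 with 30 of 31 were the complete genes of the fibril-associated group, whose members sit on the surface of fibrils. COL14A1 had 20 of 47, COL21A1 16 of 29 and COL22A1 50 of 64. COL15A1, a multiplexin of vessel walls, was complete with 38 of 42. The transmembrane genes COL13A1 with 35 of 40 and COL17A1 with 41 of 55 were partial, as was COL28A1 with 8 of 34. COL13A1 listed 41 introns, of which 39 had the length of an intron in some reference transcript of the gene.

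The 4 collagen genes with no intron (11.8%, with 9.18% over all genes) were COL8A2, COL10A1, COL9A3 and COL18A1. COL8A2 and COL10A1 encode short chains that form hexagonal networks, and were listed as single exons of 200 bases and 2935 bases, where the reference has 3 and 2 introns. COL9A3 was listed as 1 exon of 4034 or 4077 bases and COL18A1, the source of endostatin, as 1 exon of 93 bases, where the reference has 31 and 41 introns. COL8A1 was listed with 6 introns, of which 2 matched the 4 of the chosen reference transcript, and all 6 had the length of an intron in some reference transcript of the gene.

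**Figure D3:**
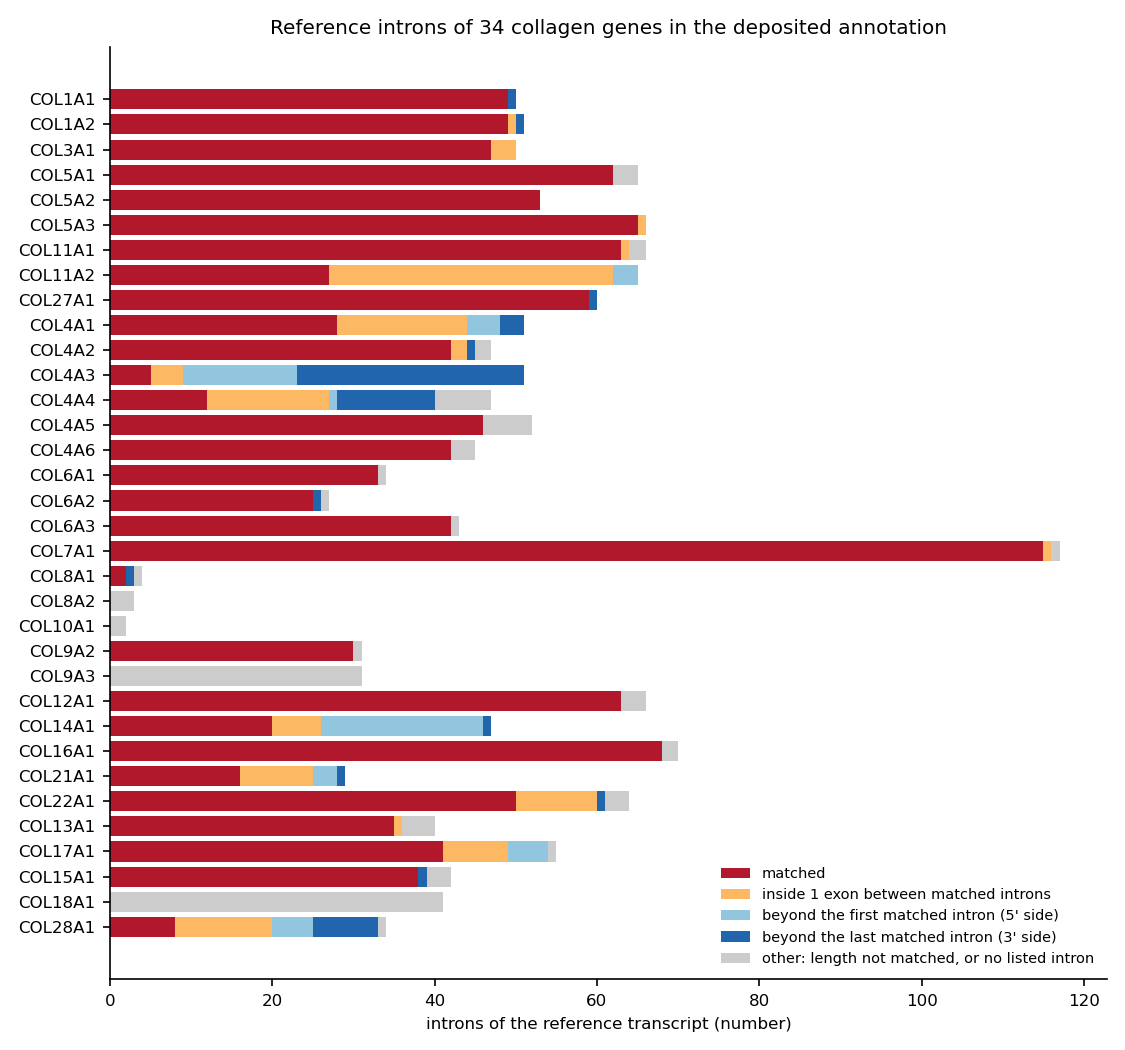
Reference introns of each of the 34 collagen genes (number), split into those matched in the deposited annotation, those inside 1 listed exon between matched introns, those beyond the first or last matched intron, and others. COL5A2 is matched throughout, COL11A2 has 27 of 65 introns matched and 35 inside exons, and the 4 genes without introns are grey throughout.

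Some listed exons took in whole introns. An internal exon was called joined where it had exactly the summed length of a run of at least 2 reference exons and the introns that separate them, had at least 1 flanking intron matched, and equalled no single reference exon in length. There were 66 joined exons in 16 of 34 collagen genes (47.1%, 31.5% to 63.3%), with 9.21% over all genes. Among genes with 25 or more reference introns the share was 51.6% for collagen genes and 25.2% over all genes. Both flanking introns were matched for 64 of the 66. A joined exon held 1 reference intron in 39 cases, 2 in 14 and 3 or more in 13, 130 introns in all. Over all genes, 1289 of 1827 joined exons held 1 reference intron and 288 held 3 or more. Their median length was 1720 bases, against 2440 bases for the 1827 joined exons of all genes. A length that was a multiple of 3 was found in 25 (37.9%), against 34.2% over all genes. Whether they stand for introns left in the RNA cannot be read from the rows, which mark no intron.

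COL11A2 had the most, 15 joined exons holding 35 introns, so that only 11 of its 26 internal exons were single reference exons. The longest had 6561 bases (chr6:33148035-33154595, minus strand) and took in reference exons 5 to 12, that is 7 introns, with 753 exon bases and 5808 intron bases. The next, of 1498 bases (chr6:33146085-33147582), took in exons 13 to 20 with 7 introns, and one of 1079 bases (chr6:33141279-33142357) took in exons 31 to 36 with 5. One of 842 bases (chr6:33138103-33138944) took in exons 45 to 48 with 3. The other 11 ranged from 234 to 965 bases with 1 or 2 introns each. All 11 unjoined internal exons of COL11A2 had lengths that were multiples of 9, and 10 of the 15 joined ones did not. COL11A1, which encodes a partner chain, had 1 joined exon, of 2952 bases over reference exons 9 and 10.

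COL4A1 had 11 joined exons with 16 introns, none with 3 or more. The longest had 3969 bases (chr13:110853785-110857753, minus strand, exons 17 to 19), followed by 3370 bases (chr13:110835531-110838900, exons 26 and 27) and 2761 bases (chr13:110814577-110817337, exons 46 to 48). COL4A2, its partner in the same network, had 1, of 5236 bases over exons 29 and 30. COL4A4 had 7 with 20 introns, the longest of 25914 bases over exons 3 to 7. COL4A3 had 2, of 6007 and 1302 bases. COL4A5 and COL4A6 had 0, though each listed 1 long internal exon that equalled no reference run, of 4073 bases in COL4A5 and 10557 bases in COL4A6.

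**Figure D4:**
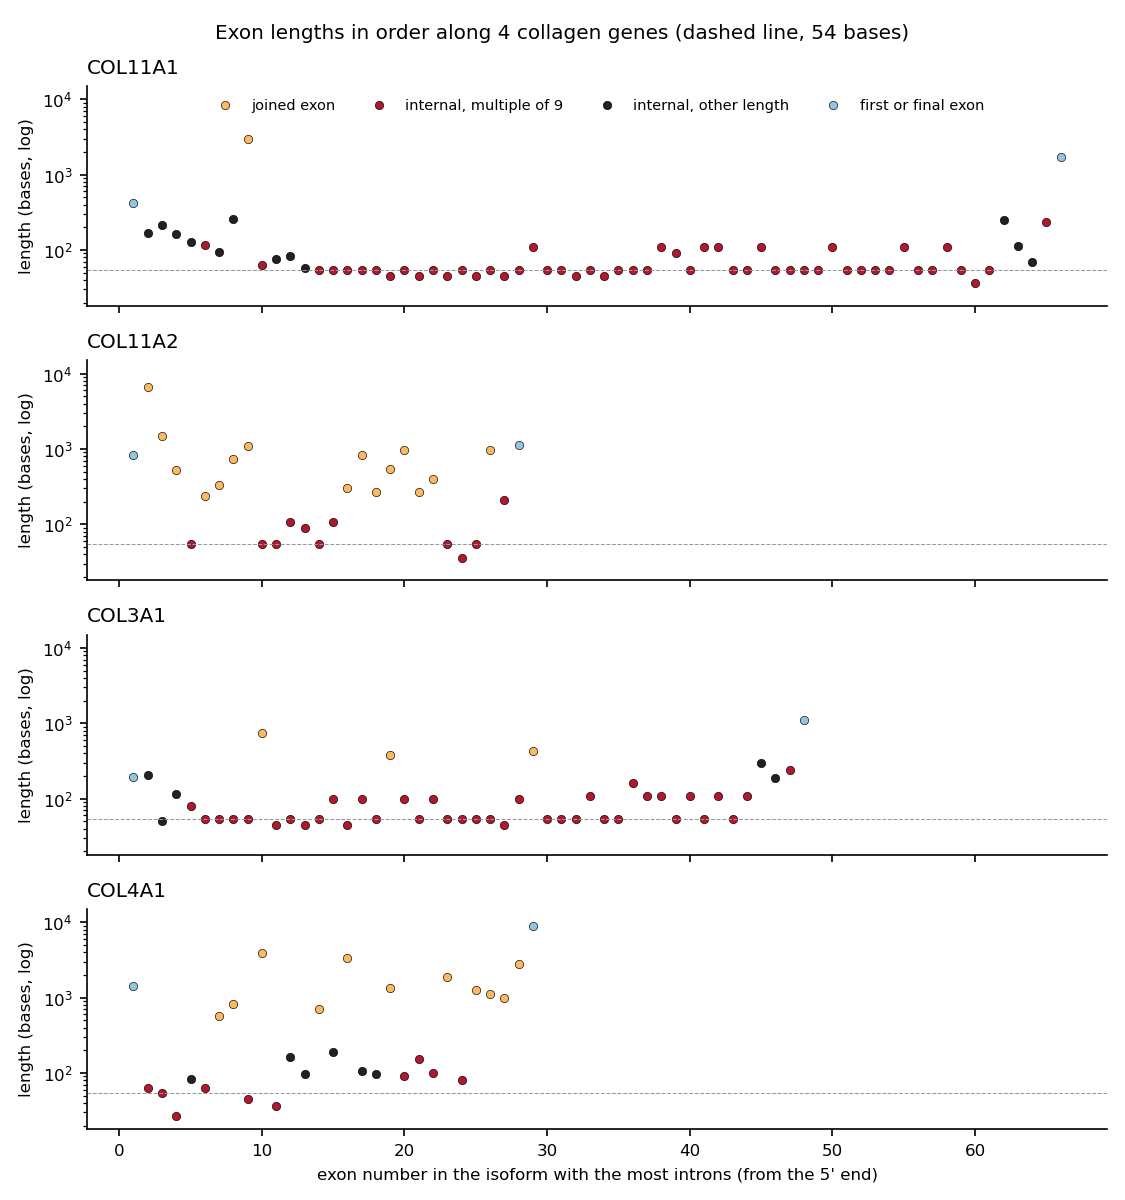
Exon length (bases, log axis) in order from the 5′ end in the isoform with the most introns of COL11A1, COL11A2, COL3A1 and COL4A1, with joined exons in yellow and the dashed line at 54 bases. COL11A1 runs along the line for most of its 66 exons, whereas COL11A2 has 15 joined exons among 28 exons and COL4A1 11 among 29.

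The other fibrillar genes had few joined exons, each with 1 intron. COL3A1 had 3, of 751 bases (exons 10 and 11), 376 bases (exons 20 and 21) and 426 bases (exons 31 and 32). The exon parts came to 108, 162 and 162 bases, all multiples of 9, and the joined lengths were not. COL1A2 had 1 of 649 bases over exons 2 and 3, and COL5A3 1 of 348 bases over exons 55 and 56. COL1A1, COL5A1, COL5A2 and COL27A1 had 0. With the joined exons left out, the share of fibrillar internal exons with a length that was a multiple of 9 was 84.2%.

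Joined exons were also listed in 7 other collagen genes. COL28A1 had the longest of any collagen gene, 71423 bases over reference exons 8 to 19 with 11 introns (chr7:7484049-7555471, minus strand), and a second of 3468 bases. COL22A1 had 7 with 11 introns, of 888 to 13037 bases. COL14A1 had 6, of 465 to 8697 bases, and COL21A1 4, of 778 to 8528 bases. COL17A1 had 3, of 9499, 2744 and 2211 bases with 8 introns. COL13A1 had 1 of 4413 bases and COL7A1 1 of 357 bases. That of COL7A1 covers exons 103 and 104. Of the 49 internal collagen exons of 1000 bases or more, 41 were joined and 8 were not, a split that was not counted over all genes. One of the 8, of 1775 bases in COL27A1, was as long as a single reference exon. The other 7 lay in COL4A5, COL4A6, COL8A1, COL12A1, COL15A1, which had 2, and COL28A1, and the longest of these had 61325 bases, in COL28A1.

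Every collagen gene was listed with 1 start, as were 13719 of the 13721 genes of the annotation. Of the 30 collagen genes with an intron, 0 had 2 or more first exon donors, and the share over all genes was 0% as well, so no gene was listed with alternative first exon donors. The first reference intron was matched in 17 of 34 collagen genes (50.0%), with 50.3% over all genes. First exons of COL5A3 (174 bases), COL11A1 (424 bases), COL12A1 (131 bases) and COL22A1 (375 bases) had exactly the reference length. Reference introns on the 5′ side were not listed in COL14A1, COL4A1, COL11A2, COL17A1, COL4A3, COL4A4, COL21A1 and COL28A1. First exons of COL4A4 (172 bases), COL21A1 (169 bases) and COL28A1 (54 bases) had exactly the length of the reference exon at that place. Those of COL14A1, COL4A1, COL11A2, COL17A1 and COL4A3 (8031 bases, reference exon 60 bases) were longer. COL14A1 began with 31385 bases before reference intron 21 (reference exon, 123 bases) and COL4A1 with 1442 bases before intron 5 (45 bases). COL11A2 began with 827 bases before intron 4 (163 bases) and COL17A1 with 2246 bases before intron 6 (48 bases). Joined exons were called among internal exons only. With first and final exons included there were 77, in 18 collagen genes.

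The 6 basement membrane genes lie in head-to-head pairs that share a promoter region in the genome. COL4A5 and COL4A6 had listed starts 1417 bases apart, against 1452 bases for the chosen reference transcripts. The starts of COL4A1 and COL4A2 lay 93270 bases apart in the annotation, against 3 bases in the reference, and those of COL4A3 and COL4A4 99101 bases apart, against 329 bases. On the 5′ side COL4A1 lacked 4 reference introns, COL4A3 lacked 14 and COL4A4 lacked 1.

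The last reference intron was matched in 15 of 34 collagen genes (44.1%, 28.9% to 60.5%), with 55.9% over all genes. It was matched in 48.4% of those with 25 or more reference introns, with 61.7% over all such genes. In 7 genes, COL1A1, COL1A2, COL27A1, COL4A2, COL8A1, COL14A1 and COL15A1, the listed structure stopped at exactly the end of the penultimate reference exon. COL1A1 and COL1A2 both ended in an exon of 243 bases, where the reference goes on with a last exon of 2360 bases in COL1A1 and 986 bases in COL1A2. COL27A1 ended in 219 bases and COL4A2 in 287 bases. In the isoform with the most introns, the final exon was within 10 bases of the last reference exon in 11 genes, such as COL3A1 with 1119 bases in both, COL5A2 with 2320 against 2321 bases and COL12A1 with 2231 against 2232 bases. A second, shorter form of the final exon of COL4A6 (1653 bases) and COL9A2 (894 bases) was also within 10 bases of the reference, which has 1653 bases in COL4A6 and 895 bases in COL9A2. Neither the 7 stops nor the 11 matching final exons were counted over all genes, so they are not given as traits of collagen genes.

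More than 1 final exon acceptor was listed for 11 of the 30 collagen genes with an intron (36.7%, 21.9% to 54.5%), with 22.5% over all genes. COL6A3 had 4 acceptors, COL11A1, COL27A1, COL12A1, COL22A1 and COL28A1 had 3, and COL11A2, COL4A5, COL9A2, COL14A1 and COL16A1 had 2. Ends that share an acceptor were not counted apart, such as the 4 of COL17A1, whose final exon had 305 to 2361 bases. How often final exons share an acceptor with an internal exon was not counted over all genes, so it is not given as a trait of collagen genes. In each of the 11 genes at least 1 final exon began at the acceptor of an internal exon, 16 acceptors in all. COL6A3, a long chain of the beaded filaments, had such ends at exon 2 (10308 bases, where the internal exon has 36), exon 4 (1730 bases, internal 603) and exon 9 (720 bases, internal 606), beside its last end at exon 44. COL11A1 had them at exon 5 (343 bases, internal 129) and exon 23 (955 bases, internal 45), and its full end at exon 66 with 1698 bases. COL27A1 ended at exon 12 (7598 bases, internal 45), at exon 13 (810 bases) and at exon 60. COL22A1 ended at exon 6 (1062 bases, internal 124), exon 15 (499 bases, internal 54) and exon 52, and COL12A1 at exon 52 (291 bases, internal 110) and with 2 acceptors at exon 67. In COL11A2, COL14A1 and COL28A1 one early final exon was shorter than the internal exon from the same acceptor, 373 against 6561 bases in COL11A2, 166 against 3348 bases in COL14A1 and 2321 against 61325 bases in COL28A1. The rows gave 2 ends at each of the 16 shared acceptors, 1 of them that of the internal exon. Final exon lengths at these acceptors are those of the later of 2 overlapping rows.

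**Figure D5:**
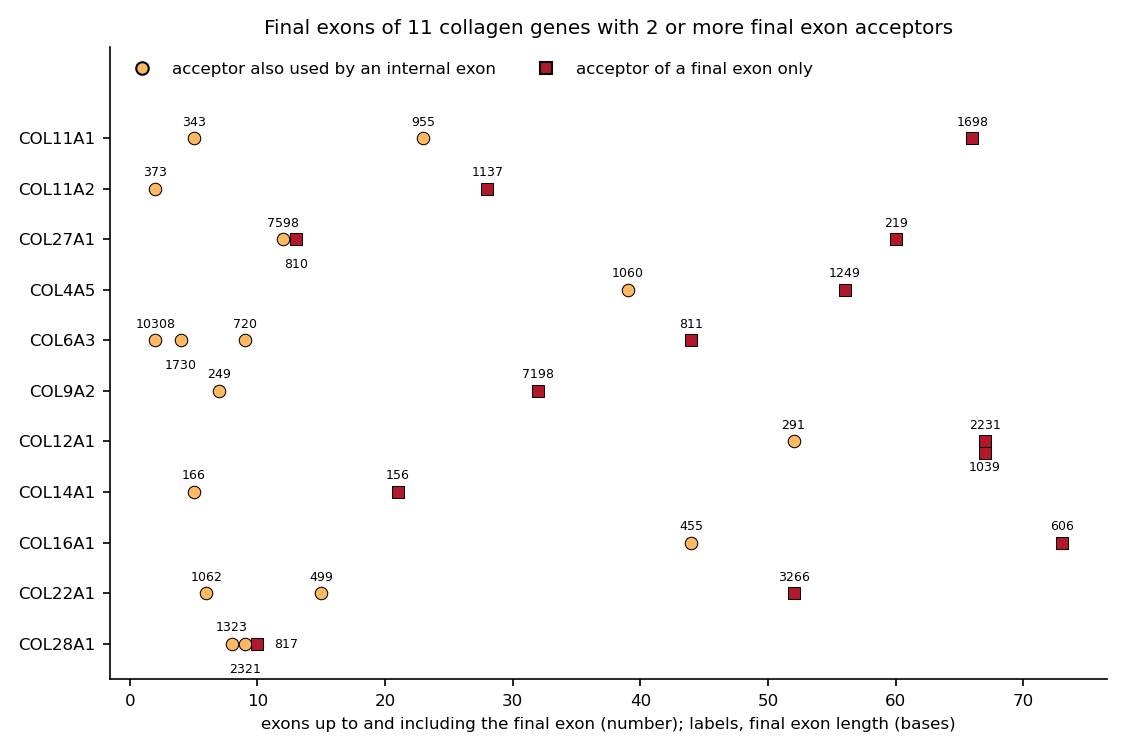
Final exons of the 11 collagen genes with 2 or more final exon acceptors, placed by the number of exons up to and including the final one. Labels give its longest length in bases with the later of overlapping rows kept. The second COL12A1 marker is set lower so that both can be seen. Yellow circles share their acceptor with an internal exon and lie before the last end of each gene, as in COL6A3 at exons 2, 4 and 9.

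Genes that act on collagen in the cell and outside it were listed for 39 of 43 names, of which 38 could be matched to the reference. Of these, 15 were complete, where the share over all genes was 33.7%. LEPREL2, TLL2, MMP13 and ITGA1 had no row, and ITGA10 was not matched. The complete ones were P4HB, PLOD1, PLOD2, PLOD3, LEPRE1 and LEPREL1, which hydroxylate proline or lysine or belong to such enzymes, the glycosyltransferases COLGALT1 and COLGALT2, the coat proteins SEC23A and SEC24D, the propeptide proteases ADAMTS3 and ADAMTS14, the receptors ITGA2 and ITGA11, and SPARC, which binds collagen. Joined exons were listed in 2 of the 38, with a share of 9.21% over all genes, 4 in LOXL4, an enzyme that crosslinks collagen, and 1 in ADAMTS14. Of the partial genes TLL1 (2 of 21 introns) and P4HA3 (2 of 12) had the fewest introns matched. The other partial genes were P4HA1 and P4HA2, which hydroxylate proline, the chaperones and folding factors CRTAP, PPIB, SERPINH1 and FKBP10, the export factor MIA3, the propeptide proteases BMP1 and ADAMTS2, the enhancers of C-propeptide cleavage PCOLCE and PCOLCE2, the crosslinking enzymes LOX, LOXL1, LOXL2, LOXL3 and LOXL4, the matrix proteases MMP1, MMP2 and MMP14, and the receptors DDR1 and DDR2.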

How the data were processed

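The deposited file used is 1 exon annotation, which the authors made for 3 EPZ015666 and 3 DMSO libraries of poly(A)-selected RNA. Per the deposited rows its numeric columns are exon start and end positions, so the unit is another than counts or levels. Tools listed in the submitters' processing notes are RSEM, DESeq 1.10.1, STAR 2.4.1d, bedtools 2.20.1 and Bowtie 1.0.1, and the builds are GRCh37 and hg19, with no roles given. Levels per library were not analysed here, and the planned edgeR comparison of the groups was not run, since the file has 0 value columns per library.

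A new isoform was begun at each change of Parent or Name and wherever positions stepped back toward the 5′ end (31659 isoforms). Rows whose end preceded the start (76) were dropped, and of 10093 overlapping neighbours the later was kept. Names were matched to GENCODE 29 (GRCh38) by symbol or older symbol (12962 of 13721, all 34 collagen genes by name), on the same chromosome and strand, and compared by length and order, never by position. The reference transcript was the coding one with the most introns. Named were all listed fibrillar and basement membrane genes, and in other groups the member with the most introns. Members of those groups that were partial, had a joined exon or had 3 or more final exon acceptors were named too. Other members, and the genes whose first or final exons have the reference length, were named after their values were seen. Some results and exon sequences are not reported here. Members and lists were chosen with earlier results of these data known. Analyses used Python 3.11.15 with numpy 2.4.6, scipy 1.17.1 and matplotlib 3.10.9, and the matching was tested on simulated data. Alternatives were other overlap, completeness, flanking, end and length rules.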

Additional observations from a re-analysis of the deposited data

How the results depend on the processing

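No paired analysis was possible because the annotation has no columns per library, and for the same reason no library could be left out in turn. There were 39 values from alternative rules over 9 results, and 37 stayed close to those reported. Close means within a factor of 1.5 for counts and inside the Wilson interval for percentages. The values are not independent, since counts of partial genes follow from those of complete genes. Collagen genes with 2 or more first exon donors numbered 0 under every rule. Requiring every reference intron to be matched left 1 complete collagen gene and 33 partial ones. Complete genes numbered 17 to 20 under the other rules, joined exons 64 to 77 in 16 to 18 genes, and genes with 2 or more final exon acceptors 10 or 11. Leaving the joined exons out of the fibrillar lengths, and calling joined exons by their flanking introns alone, were chosen after seeing the data. Matching by length can pair introns that only happen to be equally long. Reference transcripts come from another build, and a gene whose listed introns differ from the chosen transcript at over 10% of its introns counts as partial. Without levels, a partial listing cannot be told from low coverage.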
